A study of Mus musculus with 6 samples.

Results

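Imprinted genes are expressed from the maternal or the paternal copy alone, some of them only in certain tissues. Described here are 10 of them: Snrpn, Ndn and Peg12 of the Snrpn cluster, Cdkn1c and Phlda2 of the Kcnq1 cluster, Sgce of the Peg10 cluster, Mest, Dlk1, and Peg3 and Zim1 of the Peg3 cluster. They were taken by name, and 9 of the 10 had a probe on the array (Peg3 had no named probe), 12 probes among 41006. The arrays compared 3 kinds of cultured mouse cell with 2 arrays each. MAPC, multipotent adult progenitor cells, are adherent cells grown from bone marrow. Both MAPC arrays held 1 clone, called clone 2 with high Oct4 in the labels although the titles read mMAPC-1, and the labels name no mouse strain for it. Its marrow culture was depleted of CD45- and Ter119-bearing blood cells after 4 weeks and seeded at 10 cells per well. The clone had gone through more than 80 population doublings in 5% oxygen and 2% serum, with EGF and PDGF-BB at 10 ng/mL and LIF at 1000 units/mL. ESC, C57BL/6 embryonic stem cells, were cultured in 15% serum with LIF over irradiated feeder fibroblasts of mouse embryos, and were moved off the feeders before RNA extraction. NS, neurospheres, are floating clusters of neural progenitors, here from forebrain of C57BL/6 embryos at E11.5, grown with bFGF and EGF at 20 ng/mL. The labels name no engineered allele in any group. Cell type and culture differed together and cannot be told apart, and the p-values measure the spread between these arrays, not between clones, embryos or lines.

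Imprinting is set in the germ line as DNA methylation on the maternal or paternal copy of a control region, and the mark is kept through cell division by Dnmt1, Uhrf1 and the Trim28 complex. A control region acts on several neighbouring genes, so members of a cluster can share a silent copy. Many imprinted genes act on growth before birth: paternally expressed genes often promote it and maternally expressed genes often restrain it. These arrays measured total transcript and not the parent of origin, so neither loss nor gain of an imprint could be read from them.

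Because Snrpn, Ndn and Peg12 were each lowest in MAPC in what follows, their start sites are shown. They are from RefSeq on GRCm38.p6, each as 250 bases before to 50 after the start. Every CG dinucleotide, the site of DNA methylation, is in capitals. The Snrpn window is the start it shares with Snurf, at the control region of the cluster.
Snrpn promoter, chr7:60005150-60005449, minus strand: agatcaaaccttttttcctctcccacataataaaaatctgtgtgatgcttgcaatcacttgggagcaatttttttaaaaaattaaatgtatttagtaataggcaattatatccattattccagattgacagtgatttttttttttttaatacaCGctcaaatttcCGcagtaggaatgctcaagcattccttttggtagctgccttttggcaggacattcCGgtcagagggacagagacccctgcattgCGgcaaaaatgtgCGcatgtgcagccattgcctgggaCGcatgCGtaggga
Ndn promoter, chr7:62348027-62348326, plus strand: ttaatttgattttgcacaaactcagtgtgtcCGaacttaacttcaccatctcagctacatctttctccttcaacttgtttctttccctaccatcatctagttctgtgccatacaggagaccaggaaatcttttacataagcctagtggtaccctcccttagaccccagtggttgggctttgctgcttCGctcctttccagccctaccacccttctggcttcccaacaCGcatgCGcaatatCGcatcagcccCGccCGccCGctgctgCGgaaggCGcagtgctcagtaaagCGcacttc
Peg12 promoter, chr7:62464461-62464760, minus strand: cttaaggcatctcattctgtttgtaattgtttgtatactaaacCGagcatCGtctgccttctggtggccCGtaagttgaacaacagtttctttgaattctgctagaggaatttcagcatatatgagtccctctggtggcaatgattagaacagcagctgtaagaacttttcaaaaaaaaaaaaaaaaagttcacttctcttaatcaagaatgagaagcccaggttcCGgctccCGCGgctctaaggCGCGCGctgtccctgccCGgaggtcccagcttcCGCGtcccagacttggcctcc
These windows held 7, 11 and 12 CG, against a median of 7 over all 32817 windows of the same length. The Phlda2 window held 26 CG, a count reached by 16.9% of all windows. The motif TGCCGC, the core bound by Zfp57 at methylated imprints, was searched on both strands (GCGGCA on the other). It was found once in the Snrpn window. Of all windows 11.6% held it, and of the 74 windows of the other imprinted genes counted below 16 did (21.6%). Of the 13 windows of the listed genes 4 held it (30.8%). Among the 4, 2 were Mest windows that almost wholly overlap, starting at chr6:30737800 and chr6:30737803, so they are not separate finds. The listed genes with the motif were Snrpn, Mest and Zim1. The palindrome CGCATGCG, looked for only after these sequences were seen, stood in all 4 Snrpn windows and in the Ndn window (5 of 13). It stood in 1.86% of all windows and in 3 of the 74 of the other imprinted genes (4.05%). For both motifs the count among the 74 includes the window that Snurf shares with Snrpn. In the printed Snrpn window both motifs occur, at separate places. Cdkn1c and Sgce had no window in the table. These matches describe letters and say nothing about binding.

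Mest and Snrpn had more than 1 probe, and the probes disagreed in size, so their letters are shown as well. The first pair of Mest probes overlaps by 45 bases, in capitals, and differs only in the 15 bases at an end. For the third Mest probe and both Snrpn probes the first 30 of 60 bases are given.
Mest P108662: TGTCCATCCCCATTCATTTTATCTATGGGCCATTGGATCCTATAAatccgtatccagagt
Mest P127556: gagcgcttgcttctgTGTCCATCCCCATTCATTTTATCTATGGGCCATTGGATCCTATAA
Mest P132578, first 30 bases: aaatagacattggcgtaaatacagtgttct
Snrpn P118076, first 30 bases: gtgaaattgtgtacctgcaagctttttgac
Snrpn P111425, first 30 bases: ctataggatgagatgtatcctgcaagatgg

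Each array carried sample RNA in Cy3 and a common reference from 11 mouse cell lines in Cy5, with no dye swap, and values below are log2 ratios of sample to reference unless a signal is named. Signals are background-subtracted brightness in scanner units and are compared within a probe, or as the sum over a fixed list of markers. Between 91.9% and 99.6% of probe spots were well above background. The ESC markers (Pou5f1, Zfp42, Eras and others) were lower in MAPC than in ESC for 7 of 7 genes, against 22.2% of all tested probes. The NS markers were lower in MAPC than in NS for 6 of 6, against 22.4% of all. The MAPC markers (Sox17, Foxa2, Pdgfra and others) were higher in MAPC for 6 of 6. They were chosen from earlier results of these data, so that count is no check of identity. Pou5f1 itself, which encodes Oct4, read 0.90 and 1.33 in MAPC, 3.38 and 2.90 in ESC, and -0.25 and -0.29 in NS. Of the 12 member probes 11 were tested, and Zim1 was not, being well above background on 3 arrays and on both arrays of no group.

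MAPC held little transcript of the paternally expressed Snrpn cluster. Snrpn, Ndn and Peg12 were each lower in MAPC than in both other cell types, and Ndn and Peg12 were highest in NS while Snrpn was highest in ESC. The remaining measured genes of the cluster, Magel2 and Mkrn3, were also lower in MAPC than in both others, by less. Against ESC 5 of 5 measured genes of the cluster were lower in MAPC (median log2 difference -1.32), where 22.2% of all tested probes were lower. Against NS 5 of 5 were lower (median -2.11), where 22.4% were. All these genes are paternally expressed. Members and lists were chosen with earlier results of these data known, so these counts are a description.

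Snrpn encodes SmN, a core protein of spliceosomal small nuclear ribonucleoproteins in brain. Its brighter probe (P118076) read -0.10 and -0.19 in MAPC, 2.42 and 2.33 in ESC, and 1.96 and 1.97 in NS. The signals behind these ratios were 257 and 248 in MAPC, 6979 and 7427 in ESC, and 2822 and 3360 in NS. ESC were highest, NS next and MAPC far below, with no overlap between groups. The log2 difference was -2.52 ± 0.0604 (SE, n = 2 arrays per group) between MAPC and ESC (limma adjusted p = 6.6e-08), 5.74-fold, and -2.11 between MAPC and NS (limma adjusted p = 8.85e-08). ESC exceeded NS by 0.41 (limma adjusted p = 0.000947). The other Snrpn probe (P111425) gave the same order with larger steps. MAPC were lower than ESC by a log2 difference of -3.89 ± 0.102, and ESC exceeded NS by 1.23. Its MAPC signals of 25.8 and 23.6 exceeded 99.68% of the 314 negative control spots but not the highest of them, so the size of that step rests on the background correction. On MAPC replicate 2 the signals of Ndn, Peg12, Cdkn1c and Dlk1 given below likewise lay under the highest control spot and above 99.68% of them, and so did Sgce on ESC replicate 2 (above 99.36%).

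Ndn encodes necdin, a MAGE family protein that restrains proliferation in neurons. It read -0.44 and -0.27 in MAPC, 2.08 and 2.24 in ESC, and 3.65 and 3.48 in NS, from signals of 66.0 and 92.8, 1249 and 1550, and 5571 and 6193. The order was NS, ESC and then MAPC, and no groups overlapped. MAPC were lower than ESC by a log2 difference of -2.51 ± 0.0911 (limma adjusted p = 4.72e-07) and lower than NS by -3.92 (limma adjusted p = 3.42e-08), 15.1-fold. ESC were lower than NS by -1.41 (limma adjusted p = 9.17e-06).

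Peg12, also called Frat3, encodes a FRAT family protein that binds the kinase Gsk3. It read -0.41 on each MAPC array, 0.81 and 1.01 in ESC, and 3.43 and 3.37 in NS. Here NS stood far above both others, and ESC were nearer to MAPC. The log2 difference was -1.32 ± 0.0727 between MAPC and ESC (limma adjusted p = 4.23e-06), -3.81 between MAPC and NS (limma adjusted p = 1.52e-08), 14.0-fold, and -2.49 between ESC and NS (limma adjusted p = 1.79e-07). Of the neighbours, Magel2, a MAGE family ubiquitin ligase regulator, differed by -0.32 from ESC and -1.24 from NS, and Mkrn3, a makorin RING finger gene, by -0.27 and -0.99. With the sample channel alone the MAPC to ESC differences of these neighbours did not pass (limma adjusted p = 0.0528 and 0.769).

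**Figure D1:**
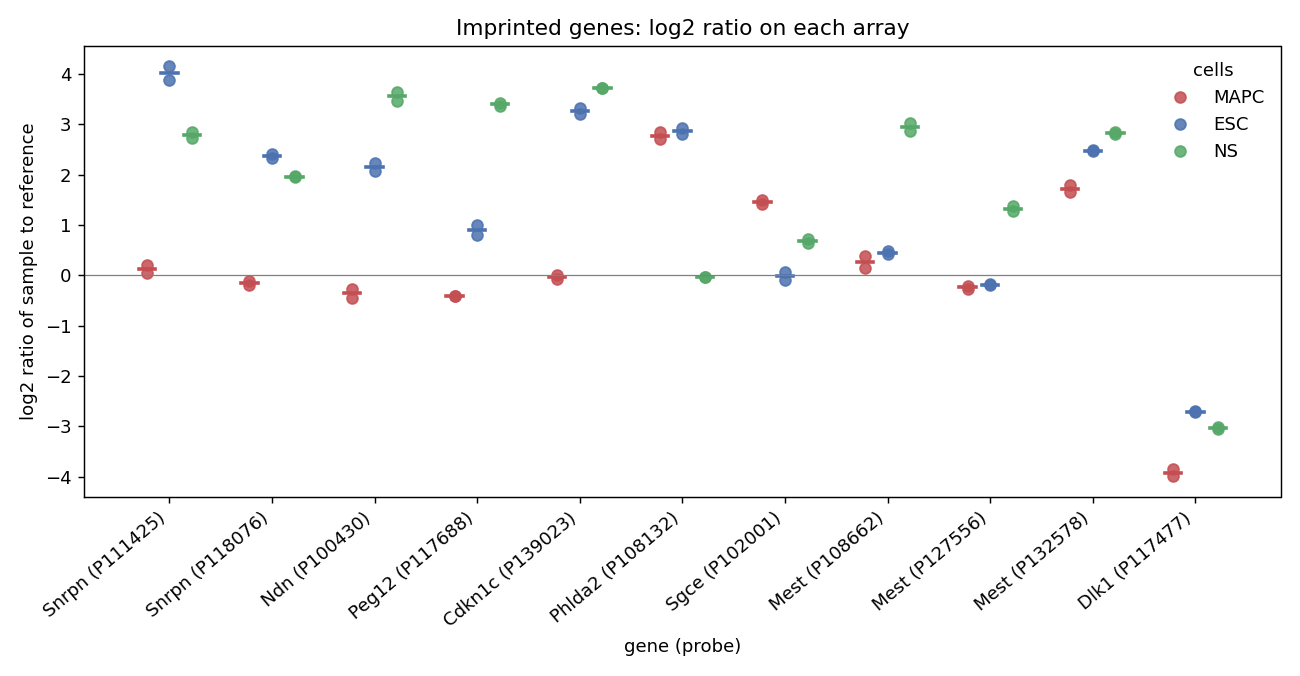
Log2 ratio of sample to reference for the 11 tested probes of imprinted genes on each array (points; horizontal marks are means of 2 arrays), coloured by cell type. MAPC sit near 0 for Snrpn, Ndn, Peg12 and Cdkn1c, where ESC and NS are higher, while Phlda2 is near 0 in NS and Sgce is highest in MAPC.

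The maternally expressed Kcnq1 cluster did not move as a unit. Cdkn1c was strongly lower in MAPC than in ESC and NS. Phlda2 was near background in NS and present in MAPC and ESC. Cdkn1c encodes p57Kip2, an inhibitor of cyclin-dependent kinases, and Phlda2 a small pleckstrin homology domain protein that limits placental growth.

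Cdkn1c read -0.06 and 0.00 in MAPC, 3.33 and 3.21 in ESC, and 3.73 and 3.72 in NS, from signals of 76.6 and 108, 1796 and 1843, and 2498 and 2294. MAPC lay far below both others, which were close to each other without overlapping. MAPC differed from ESC by -3.30 ± 0.0618 (limma adjusted p = 2.66e-08), 9.84-fold, and from NS by -3.75 (limma adjusted p = 8.76e-09), 13.5-fold. NS exceeded ESC, with a log2 difference of -0.45 from NS to ESC (limma adjusted p = 0.000611). Of the related inhibitors, Cdkn1a (p21) differed by -0.93 from ESC and -1.48 from NS at its brighter probe, and by -0.15 and -0.46 at the other, the first of which did not pass. Cdkn1b (p27) was higher in MAPC than in ESC by 0.67 and lower than in NS by -1.12.

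Phlda2 read 2.84 and 2.70 in MAPC, 2.81 and 2.93 in ESC, and -0.03 on each NS array. By ratio MAPC and ESC overlapped and NS lay far below both. MAPC exceeded NS by 2.81 ± 0.0700 (limma adjusted p = 4.58e-08) and ESC exceeded NS by 2.90 (limma adjusted p = 8.25e-08). MAPC and ESC differed by -0.10 (limma adjusted p = 0.338). The sample signals, however, were 907 and 733 in MAPC, 4465 and 4409 in ESC, and 25.0 and 23.0 in NS, the last below the highest negative control spot. By the sample channel alone ESC were therefore above MAPC, at a log2 difference of -2.17 from ESC to MAPC (limma adjusted p = 1.21e-05), 4.49-fold. On the same arrays the reference signal for Phlda2 was 271 and 286 beside MAPC, 1275 and 1336 beside ESC, and 40.1 and 67.4 beside NS.

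The reference RNA was the same on every array, and for most probes its signal varied little. For this the reference channel was background-corrected and quantile-normalized between arrays. The highest and lowest such reference values over the 6 arrays lay a median of 0.392 log2 units apart over all tested probes. The 99th percentile was 1.31. For Phlda2 this range was 3.91, for Mest P132578 it was 4.72, for Snrpn P118076 it was 1.65 and for Ndn 1.50. Fitted alone, the reference channel passed the threshold for 0.297% of all probes between MAPC and ESC but for 2 of the 11 member probes, for 0.559% against 5 of 11 between MAPC and NS, and for 0.246% against 2 of 11 between ESC and NS. In each of these the reference was higher where the sample was higher. The ratio is then smaller than the sample signal's own difference. Cdkn1c, Sgce and Dlk1 had reference ranges of 0.527, 0.151 and 0.272, and their differences were alike on both scales. The cause was not tested.

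**Figure D2:**
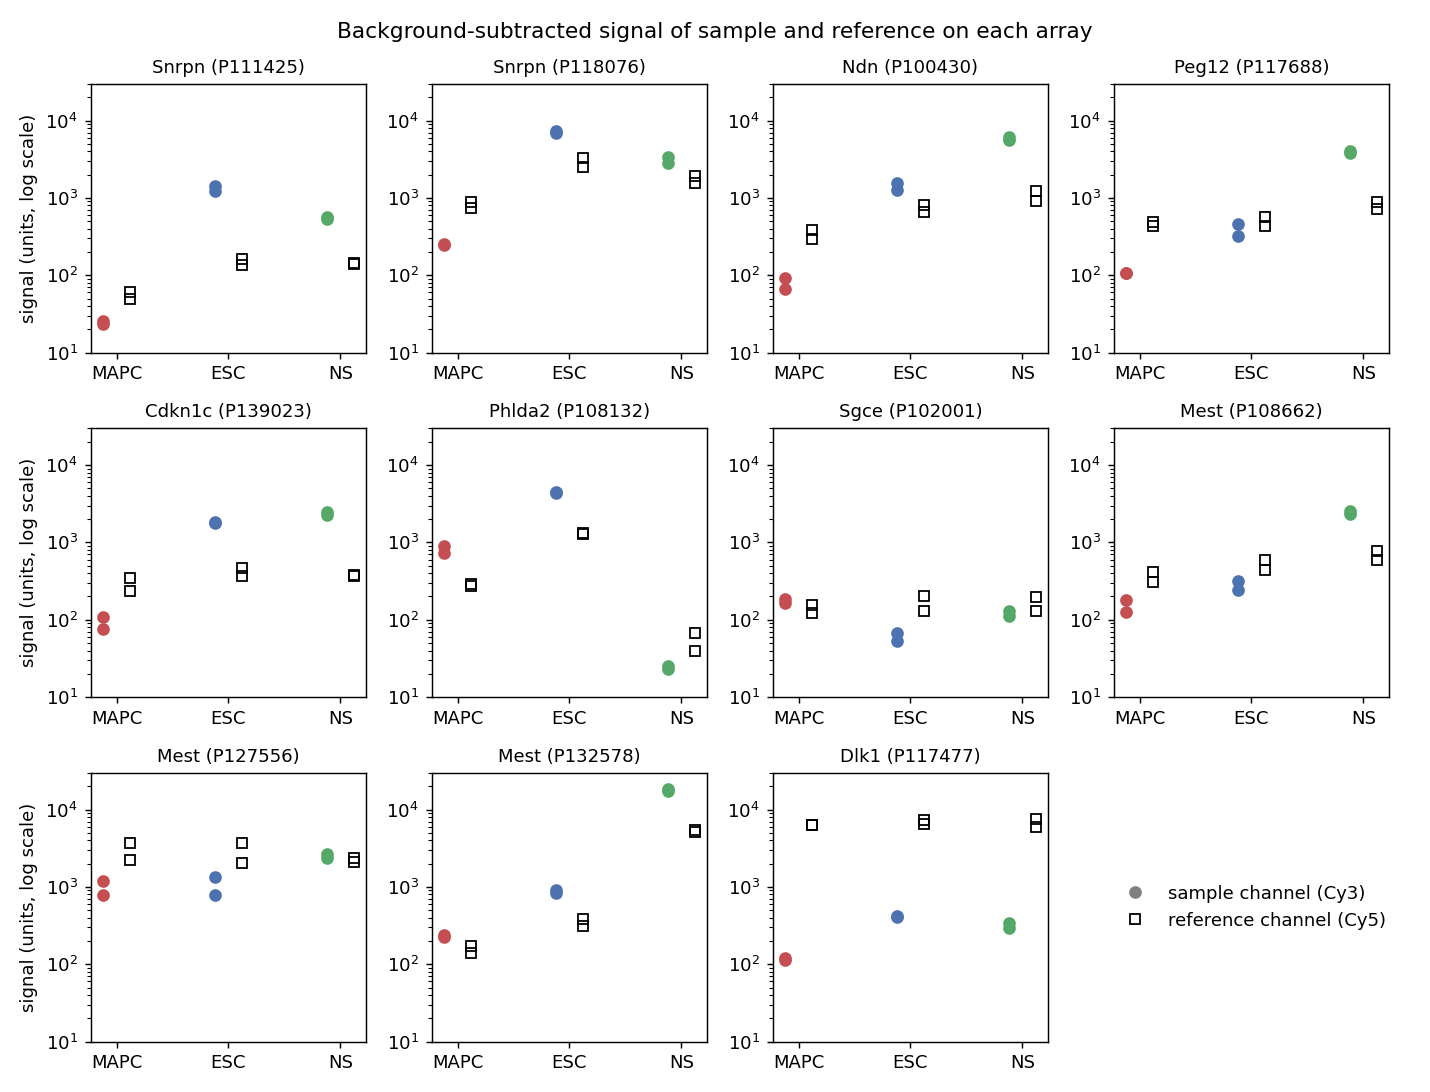
Background-subtracted signal (log scale, scanner units) of the sample in Cy3 (filled) and the common reference in Cy5 (open squares) on each array, 1 panel per probe. The reference is flat across cell types for Sgce and Dlk1 and follows the sample for Phlda2 and Mest P132578. There it runs from 40.1 to 1336 and from 138 to 5414.

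By the sample channel alone Ndn differed by -3.17 between MAPC and ESC and by -5.43 between MAPC and NS, and Peg12 by -1.12 and -4.56. Snrpn P118076 differed by -4.29 and -3.27, and by 1.03 between ESC and NS. Phlda2 differed from NS by 3.74 in MAPC and 5.90 in ESC. Every one of these kept its direction, and the Snrpn cluster members stood below ESC and NS on both scales.

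**Figure D3:**
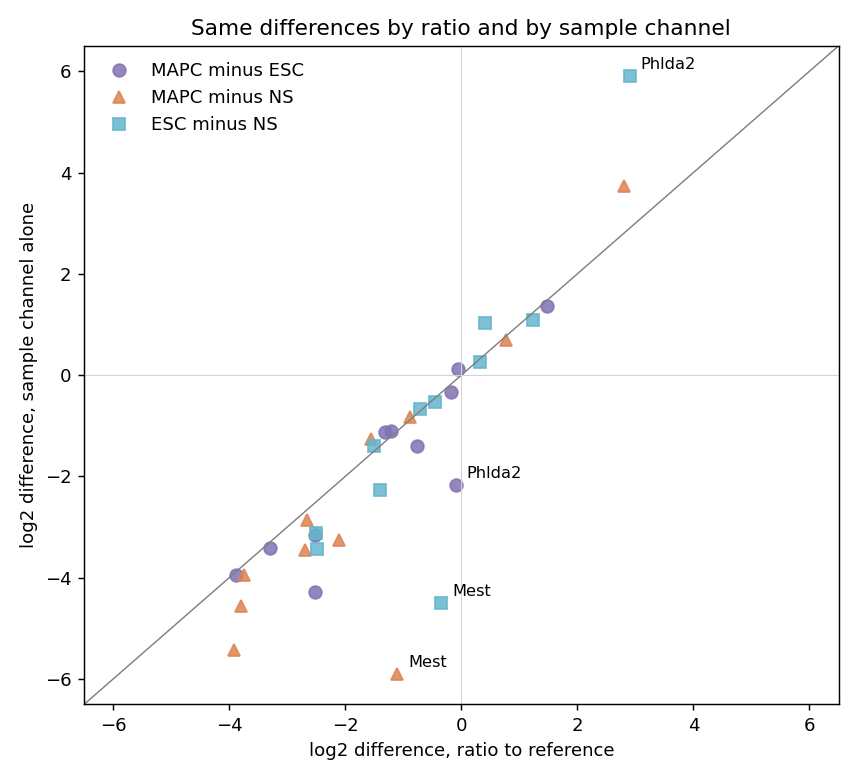
Log2 difference of each tested member probe by ratio to the reference (horizontal) against that by the sample channel alone (vertical), for the 3 contrasts, with the line of equality. Most points lie near the line, and the labelled Phlda2 and Mest points lie off it, such as Phlda2 between MAPC and ESC at -0.10 by ratio and -2.17 by sample signal.

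In the Kcnq1 cluster, Cdkn1c and Phlda2 included, 10 genes were measured, each taken by its brightest probe. Of them 5 were lower and 0 higher in MAPC than in ESC, and 4 were lower and 1 higher than in NS, the 1 being Phlda2. Over all tested probes 22.2% were lower and 16.3% higher than in ESC, and 22.4% lower and 21.8% higher than in NS. Cd81, a tetraspanin, moved with Cdkn1c at -1.73 against ESC and -2.97 against NS. Slc22a18, an organic cation transporter family gene beside Phlda2, was lower than in ESC at -1.16 and differed from NS by 0.10, which did not pass. Nap1l4 and Tssc4 were lower than in ESC by small steps of -0.20 and -0.21, which did not pass by the sample channel alone (limma adjusted p = 0.236 and 0.0759), whereas Kcnq1 (0.07), Osbpl5 (-0.06), Tnfrsf23 (-0.08) and Tspan32 (-0.13) did not pass there. Osbpl5 had 2 dimmer probes, which disagreed: P118588 was lower in MAPC than in ESC at -1.35 (limma adjusted p = 1.78e-05) and than in NS at -1.17 (limma adjusted p = 2.85e-05), and P136559 did not pass.

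Sgce, the paternally expressed epsilon-sarcoglycan of the dystrophin-associated membrane complex, was the only tested member higher in MAPC than in both others. It read 1.42 and 1.49 in MAPC, 0.07 and -0.10 in ESC, and 0.73 and 0.65 in NS, with signals of 163 and 185, 53.1 and 67.5, and 112 and 131. The groups were ordered MAPC, NS and ESC without overlap, all at modest brightness. MAPC exceeded ESC by 1.48 ± 0.0712 (limma adjusted p = 2.04e-06), 2.78-fold, and NS by 0.77 (limma adjusted p = 5.62e-05), 1.70-fold, and ESC were below NS at -0.71 (limma adjusted p = 0.000106). The other 6 measured genes of its cluster, all listed as maternally expressed, were each lower in MAPC than in ESC, against 22.2% of all tested probes.

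Among those neighbours Pon2, a paraoxonase, differed by -2.06 from ESC and -4.40 from NS at its brighter probe. The other Pon2 probe (P132355) gave smaller steps in the same direction. It differed by -0.62 from ESC, and its means were -1.19 in MAPC and 0.92 in NS. Asb4, a SOCS box protein, differed by -1.29 and -3.65, with 1 of 2 MAPC arrays well above background. Tfpi2, a serine protease inhibitor, differed by -1.51 from ESC and by -0.01 from NS, which did not pass. Its signals in MAPC, 16.5 and 21.8, lay under the highest negative control spot, as did that on NS replicate 2 (21.3). Pon3 (-0.93), Ppp1r9a (-0.71) and Calcr (-0.32) completed the lower set against ESC, Calcr not by the sample channel alone (limma adjusted p = 0.256). Sgce and its neighbours thus lay on opposite sides of ESC. Only 3 of the 7 genes were lower than in NS, against 22.4% of all tested probes.

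**Figure D4:**
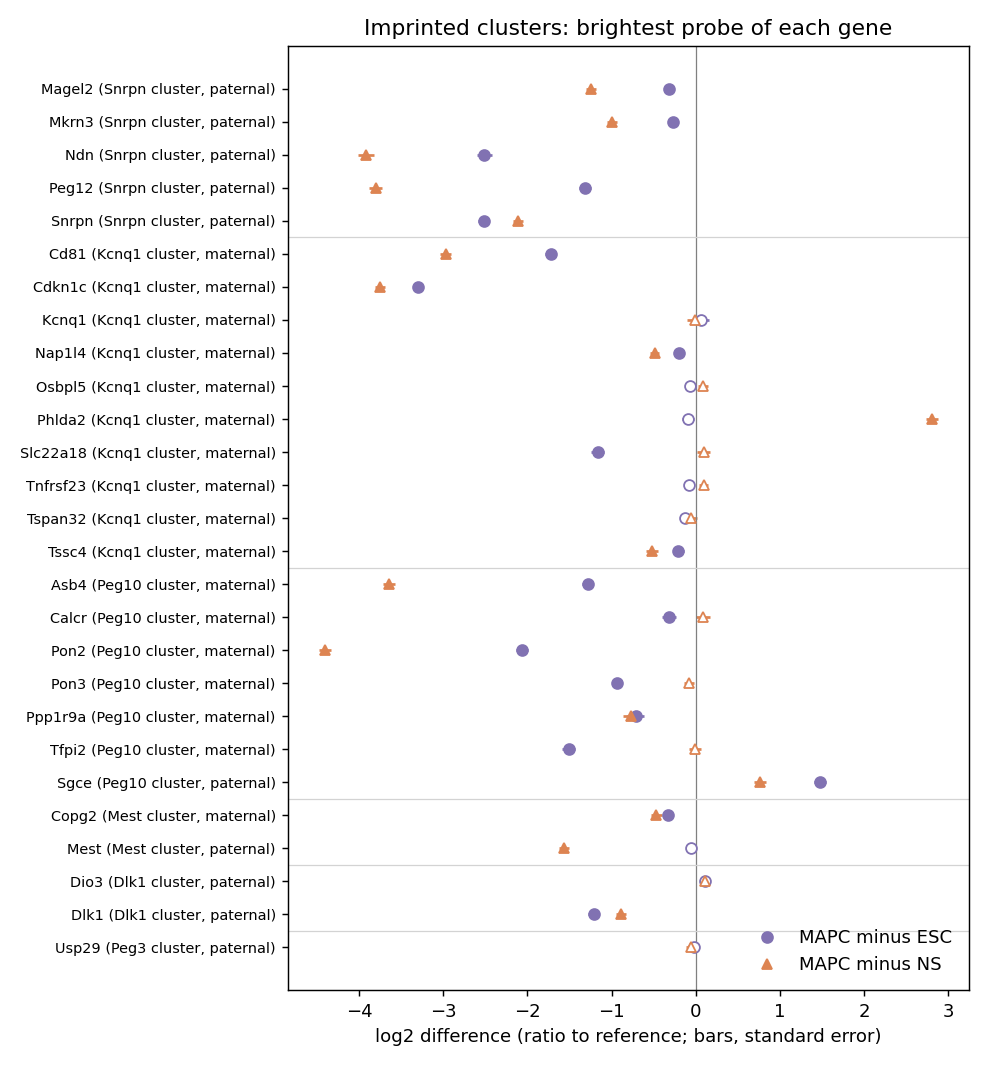
Log2 difference (horizontal; bars are standard errors) of the brightest probe of each gene in the clusters that hold a member, MAPC minus ESC (circles) and MAPC minus NS (triangles), with open symbols where limma's adjusted p was not under 0.05. The Snrpn cluster lies wholly below 0, Sgce is the 1 gene of the Peg10 cluster above 0 in both contrasts, and Phlda2 is above 0 against NS.

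Mest, paternally expressed and encoding an alpha/beta hydrolase fold protein, was highest in NS by each of its probes. P108662 read 0.15 and 0.39 in MAPC, 0.42 and 0.48 in ESC, and 3.04 and 2.88 in NS. P127556, which shares 45 of its 60 bases with it, read -0.27 and -0.21, -0.19 and -0.17, and 1.27 and 1.38. P132578 read 1.80 and 1.65, 2.49 and 2.48, and 2.81 and 2.84. Each probe separated NS from both other groups, and only P132578 separated MAPC from ESC past the threshold, at -0.76 (limma adjusted p = 4.25e-05). Between ESC and NS P132578 differed by -0.35 (limma adjusted p = 0.0031), which did not pass with the deposited processed signals or with the series matrix values (limma adjusted p = 0.167 and 0.157). P108662 passed between MAPC and ESC when MAPC replicate 2 was left out (-0.30, limma adjusted p = 0.0412).

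Between MAPC and NS the 3 Mest probes gave log2 differences of -2.69 (P108662), -1.56 (P127556) and -1.10 (P132578), all past the threshold, so the direction was shared and the size was not. The sample signal of P108662 ran from 125 and 179 in MAPC to 2321 and 2523 in NS, and that of P127556 from 789 and 1177 to 2331 and 2669. The reference behind P132578 ran from 138 and 173 beside MAPC to 5056 and 5414 beside NS, and its sample signal from 241 and 224 to 17464 and 18512. By the sample channel alone P132578 differed by -1.40 between MAPC and ESC, -5.91 between MAPC and NS and -4.51 between ESC and NS. Copg2, the neighbour transcribed from the other strand, differed by -0.33 from ESC and -0.47 from NS at its brighter probe. The first turned to 0.09 (limma adjusted p = 0.71) by the sample channel alone. The other Copg2 probe (P102377) differed by -0.03 from ESC (limma adjusted p = 0.862). Its means were -0.01 in MAPC and -0.02 in NS.

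Dlk1, a paternally expressed membrane protein with EGF repeats related to Notch ligands, was the member furthest below the reference. It read -3.99 and -3.85 in MAPC, -2.69 and -2.72 in ESC, and -3.02 and -3.05 in NS, with sample signals of 122 and 112, 425 and 403, and 292 and 343. MAPC were lowest, and no groups overlapped. The difference was -1.21 ± 0.0634 from ESC (limma adjusted p = 3.11e-06) and -0.89 from NS (limma adjusted p = 1.24e-05). ESC exceeded NS by 0.33 (limma adjusted p = 0.00407, and 0.269 by the sample channel alone), a direction that turned to -0.38 (limma adjusted p = 0.00431) when ratios were quantile-normalized between arrays, where the difference from ESC to MAPC also shrank to -0.22 (limma adjusted p = 0.0541). Dio3, at the far end of the same cluster, did not pass in any contrast.

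The Peg3 cluster was barely measured. Zim1, a maternally expressed zinc finger gene, had signals from 6.09 to 18.6 and was not tested. Usp29, the paternally expressed neighbour of Peg3, had a log2 difference of -0.02 from ESC and -0.05 from NS and did not pass.

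Counted together, 8 of the 11 tested member probes passed between MAPC and ESC, 1 higher and 7 lower in MAPC, where 38.5% of all tested probes passed. Over all tested probes 16.3% were higher and 22.2% lower. The median member difference was -1.21, against 0.01 over all tested probes. Between MAPC and NS 11 of 11 passed, 2 higher and 9 lower (44.2% of all probes, 21.8% higher and 22.4% lower; median -2.11 against 0.03). Between ESC and NS 11 of 11 passed, 4 higher and 7 lower in ESC (38.7% of all probes, 20.4% higher and 18.3% lower; median -0.45 against 0.01). By the sample channel alone 9, 11 and 10 of the 11 passed, where 25.8%, 33.9% and 26.6% of all probes did. Of the 8 genes, each by its brightest probe, 5 were below both ESC and NS in MAPC (Snrpn, Ndn, Peg12, Cdkn1c and Dlk1) and 1 above both (Sgce). The contrasts share arrays, so their counts are not independent of each other. Several members were listed because earlier results on these arrays had named them, and their counts are a description.

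The arrays fell on 2 days of Feature Extraction, replicate 1 of each group on the first and replicate 2 on the other, so each contrast could be read within a day. Cdkn1c differed between MAPC and ESC by -3.39 on the first day and -3.20 on the second, and Snrpn P118076 by -2.53 and -2.52. Sgce differed by 1.36 and 1.59, and Phlda2 by 0.04 and -0.23. The called members kept their direction on both days in every contrast.

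The wider set of imprinted genes was counted in the same way. Of 62 other genes listed, 39 had a probe, and of their 51 probes 31 passed between MAPC and ESC (5 higher, 26 lower, median -0.20), where 38.5% of all tested probes passed. Between MAPC and NS 28 passed (7 higher, 21 lower, median -0.02), against 44.2% of all. Between ESC and NS 29 passed (15 higher, 14 lower, median 0.01), against 38.7% of all. With the sample channel alone the first count was 20, with 3 higher and 17 lower. By gene, 15 of 39 stood below both others in MAPC and 3 above both, where 12.6% of all tested probes stood below both and 11.8% above.

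Genes were also grouped, members included, by the allele they are listed as expressing, which was not measured in these cells. Of 24 genes listed as maternally expressed, 17 were lower and 0 higher in MAPC than in ESC (median -0.33). For the 20 genes listed as paternally expressed the counts were 10 lower and 3 higher (median -0.17). Over all tested probes 22.2% were lower and 16.3% higher. Against NS, 11 maternally expressed genes were lower and 1 higher (median -0.08), and 10 paternally expressed genes were lower and 5 higher (median -0.15), beside 22.4% lower and 21.8% higher over all. The difference between the allele groups was not tested, and allele and cluster go together in these counts.

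Among the other imprinted genes with the widest steps, several were high in NS. Nap1l5, a nucleosome assembly protein family gene, differed by -4.50 between MAPC and NS and by -4.23 between ESC and NS. Its signals were 11.0 and 12.4 in MAPC and 17.1 and 33.9 in ESC. Those in MAPC and on ESC replicate 2 lay under the highest negative control spot. Nnat, a membrane proteolipid of developing brain, was lower in MAPC than in ESC at -1.32 and than in NS at -3.40, and by the sample channel alone at -6.58 against NS. Gatm, the first enzyme of creatine synthesis, differed by -2.71 between MAPC and NS, and Inpp5f, a phosphoinositide phosphatase, by -1.92. The Gatm signals in MAPC, 13.5 and 20.0, also lay under the highest control spot. The sizes of the Nap1l5 and Gatm steps from MAPC therefore rest on the background correction. NS were the high group for Nap1l5, Nnat, Gatm and Inpp5f, as for Ndn, Peg12 and Mest.

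Others were ordered differently. Dcn, the matrix proteoglycan decorin, was lower in MAPC than in ESC at -2.95 and than in NS at -2.26. ESC and NS differed in Dcn by 0.69 (limma adjusted p = 0.0183, and 0.146 by the sample channel alone), a call kept in 12 of 19 alternative settings. Cobl, an actin nucleator, was lower in MAPC than in ESC at -2.48 and did not differ past the threshold from NS (-0.09). Its signals were 12.3 and 18.4 in MAPC and 29.2 and 18.4 in NS. All of them lay under the highest negative control spot, so MAPC and NS could not be compared above background. Blcap, which overlaps Nnat, was lower in MAPC than in ESC and NS, at -1.11 and -1.05. H13, a signal peptide peptidase, was higher than in both, at 1.21 and 1.06, as was the adaptor Gab1 at 0.66 and 1.14, although its first value did not pass by the sample channel alone (limma adjusted p = 0.1). Impact, a translation regulator, was higher in MAPC than in NS at 1.22 and did not pass against ESC.

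Relatives that are not known to be imprinted followed the members in some families and not in others. Of 13 relatives, 5 were higher and 6 lower in MAPC than in ESC (median -0.04), and 2 higher and 6 lower than in NS (median -0.13). Over all tested probes 16.3% were higher and 22.2% lower than in ESC, and 21.8% higher and 22.4% lower than in NS. Of the 8 member genes, each by its brightest probe, 2 were higher and 6 lower than in NS. Snrpb, which encodes the SmB proteins that SmN resembles, differed by -0.22 between MAPC and ESC (limma adjusted p = 0.0387, and 0.163 by the sample channel alone), and by 0.20 between MAPC and NS, which did not pass. Maged1, a MAGE family relative of Ndn, was higher in MAPC than in ESC at 1.25 and lower than in NS at -1.06, Maged2 was higher than in ESC at 1.16, and Nsmce3 did not pass in either. Frat1, a relative of Peg12, was lower in MAPC at -0.78 and -3.25, and Frat2 at -1.07 and -0.79, the direction of Peg12.

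The relatives of Phlda2 and Sgce departed from them in part. Phlda1 was higher in MAPC than in ESC at 1.52 and than in NS at 0.60. Phlda3 was higher at 0.70 and 1.19, with 1 MAPC array left after outlier spots were dropped. Sgcb, beta-sarcoglycan, was lower in MAPC at -1.47 and -3.54, Sgcd was lower than in ESC at -0.63, and Sgca did not pass. The sarcoglycan family thus held Sgce above and Sgcb below both other cell types in MAPC.

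**Figure D5:**
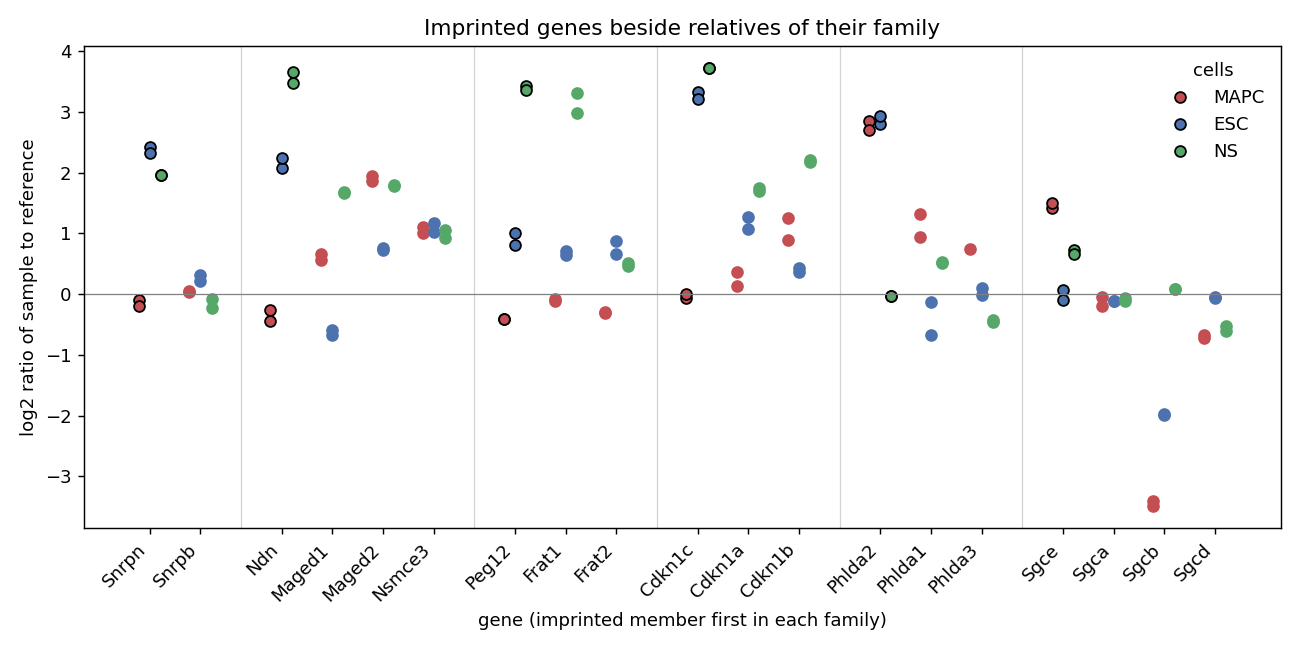
Log2 ratio on each array for imprinted genes (outlined points, first in each block) beside relatives not known to be imprinted, brightest probe of each gene, coloured by cell type. Snrpb lies within 1 log2 unit across cell types where Snrpn spans more than 2, and Sgce and Sgcb have MAPC at opposite ends. Frat1 has the order of Peg12, with NS highest and MAPC lowest.

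Factors that keep or silence imprints were measured for 12 of 18 listed genes. Between MAPC and ESC 8 were lower, 0 higher and 4 did not pass. Over all tested probes 22.2% were lower and 16.3% higher there, and 22.4% lower and 21.8% higher against NS. Ehmt2, one of the 8, differed by -0.23 at its brighter probe (limma adjusted p = 0.0231, and 0.201 by the sample channel alone). The other Ehmt2 probe differed by 0.05, which did not pass. Dnmt1, the maintenance methyltransferase, differed by -0.06 (limma adjusted p = 0.481) and its partner Uhrf1 by -0.05 (limma adjusted p = 0.492), neither past the threshold. The Polycomb subunit Eed differed by -1.57, the de novo methyltransferase Dnmt3b by -1.16, the corepressor Trim28 by -0.91, the histone methyltransferases Setdb1 and Ezh2 by -0.79 and -0.64, and the insulator protein Ctcf by -0.20, which did not pass by the sample channel alone (limma adjusted p = 0.829). Dppa3, which guards imprints in the early embryo, was well above background on neither array of MAPC. Against NS 4 were higher in MAPC, Dnmt3b at 3.22, Dnmt3l, its cofactor, at 3.19, Eed at 0.49 and Ctcf at 0.15. The 3 lower than in NS were Ezh2 at -0.60, Dnmt1 at -0.29 (limma adjusted p = 0.00388) and Setdb1 at -0.22, the last turning to 0.15 (limma adjusted p = 0.343) by the sample channel alone.

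Markers of other cells moved with the groups as well. Of 9 fibroblast genes, listed because ESC were grown over feeders, 8 were lower in MAPC than in ESC, against 22.2% of all tested probes. In ESC 8 of the 9 were higher than in NS, against 20.4% of all. Their summed sample signal was 1108 and 1037 in MAPC, 17875 and 16466 in ESC, and 7356 and 8295 in NS, and Postn, a matrix protein of fibroblasts, read 8.03 and 9.99 in MAPC against 8032 and 4415 in ESC. Of 6 neuron genes, 5 were lower in MAPC than in NS and 2 lower than in ESC, against 22.4% and 22.2% of all tested probes. The summed signals of the 6 were 6642 and 8572 in MAPC, 27493 and 26468 in ESC, and 9871 and 10980 in NS. Gap43 and Stmn2 were the 2 lower than in ESC, at -2.48 and -5.31. Tubb3 was higher in MAPC, by 0.96 against ESC and 1.95 against NS, and by the sample channel alone only Gap43 and Stmn2 were lower than in NS. These sums add probes of unlike brightness and follow their brightest genes. Stmn2 alone had 191 and 187 in MAPC, 23927 and 22240 in ESC, and 694 and 775 in NS, and Fbln2 of the fibroblast list had 642 and 486, 6963 and 8779, and 6262 and 7033. Their part in the imprinted genes' differences was not tested, and in such bulk samples fewer cells of a type and less RNA per cell cannot be told apart.

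The genes whose pattern over the 6 arrays lay nearest to each main member were found by the root mean square difference of log2 ratios after each probe was centred on its own mean, among 11902 named genes outside the lists. Cdkn1c lay nearest to Rgcc (0.0901 log2 units), Nup210 (0.125) and Sulf2 (0.176). Phlda2 lay nearest to Npm3 (0.137), Mvp (0.147) and Folr1 (0.159), and Snrpn to Pald1 (0.182), Tnnt1 (0.189) and Epb41l4a (0.199). The nearest to Ndn were Zadh2 (0.0980), Ephx1 (0.117) and Dusp6 (0.130), those to Peg12 were Angpt2 (0.0689), Rasa3 (0.0880) and Armcx3 (0.0915), and those to Sgce were Myh6 (0.0661), Rab6b (0.0759) and Obsl1 (0.0839). None of these is a listed imprinted gene, since listed genes were kept out, and with 3 cell types such closeness describes the order and size of 3 steps.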

How the data were processed

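The deposited scanner files hold spot intensity for each dye, with mean spot and median local background brightness, and background-subtracted and dye-normalized intensity that the authors made with Agilent Feature Extraction. Per the file headers its version was A.7.5.1. The deposited value table is in log10 units (column medians 2.95 to 2.97). Its array differences correlated by 0.648 to 0.990 with those of the processed ratios, so its direction is known, while its centring and the rule for dim spots stay unknown. Columns of per-sample values without a sample numbered 0.

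Here signals were corrected with normexp (offset 50) and loess-normalized within arrays in limma 3.58.1 under R 4.3.3 (files read with the R package data.table, version 1.17.8). Control spots and outlier spots were dropped. Of 41006 probes, 15294 were named by RefSeq accession, 15 by symbol and 72 by older symbol, and 25625 stayed unnamed. Testing covered the 39403 probes whose sample signal was marked well above background on both arrays of some group. All 6 arrays were fitted together with lmFit and eBayes (two-sided, 3 residual degrees of freedom), and p-values were adjusted by Benjamini-Hochberg over all tested probes with a threshold of 0.05. The method was tested on simulated data. Every member probe is named, with other imprinted genes changed at least 2-fold or sharing a cluster with a member. Members and lists were chosen with earlier results of these data known. Precision is limited by the number of arrays. The reference channel was fitted alone as an alternative chosen after seeing the data. No protein sequences were used here.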

Additional observations from a re-analysis of the deposited data

How the results depend on the processing

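Across the alternatives the member counts ran from 6 to 9 (MAPC minus ESC), 8 to 11 (MAPC minus NS) and 8 to 11 (ESC minus NS), the lowest with 1 row per gene, where fewer features are tested. The sample channel alone called 20 other imprinted probes between MAPC and ESC in place of 31. Quantile normalization between arrays turned Dlk1 (-0.38) and Dcn (-0.075, limma adjusted p = 0.857) between ESC and NS; the cause was not tested. Among single member probes over all settings, 606 values kept their call, 6 gained a call, 5 lost it and 1 that passed reversed. A change of sign where neither fit passed was counted as kept. Such changes occurred between MAPC and ESC for Phlda2 and for Mest P127556 (up to 0.12). Phlda2 between MAPC and ESC passed without background subtraction (-0.77), with median centring (-0.26) and by the sample channel alone (-2.17), and ranged up to 0.13. Mest P132578 between ESC and NS did not pass with processed signals (-0.22, limma adjusted p = 0.167), and without MAPC replicate 2 Mest P108662 passed between MAPC and ESC (-0.30).

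The replicate number, which is also the Feature Extraction day, did not clearly pair the arrays, since deviations of same-numbered arrays correlated by 0.0944, 0.156 and 0.208. With it as a replicate block the member counts were 8, 11 and 11, as without it, and the other imprinted counts 30, 28 and 29. Signals under the highest negative control spot (10.2 to 165 by array) limit the fold of Phlda2 in NS and of Snrpn P111425 in MAPC on both arrays, and of Cdkn1c, Ndn, Peg12 and Dlk1 on MAPC replicate 2 and Sgce on ESC replicate 2. On replicate 1 the last 5 exceeded every control spot. Several other imprinted genes lay under the highest control spot on both MAPC arrays. They included Nap1l5, Gatm, Cobl, Asb4, Tfpi2, Pon3, Ppp1r9a, Calcr, Magel2 and Slc22a18, so the fold of these is limited too.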
